A study of Homo sapiens with 24 samples.

Results

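The genes described here are 10 members of the bone morphogenetic protein (BMP) pathway, taken by symbol from the expression tables, which held 33113 and 37967 genes. They comprise the ligands BMP2, BMP4 and BMP7, the receptors BMPR1A and BMPR2, the target genes ID1, ID2 and ID3, and the inhibitory SMAD genes SMAD6 and SMAD7, which are targets as well. The members were chosen by their roles with the log2FC between the untreated lines known, so the values of that comparison are given as a description, without a test. Values for 8 members come from the count table, and those for SMAD6 and SMAD7 from the second table, because the first ends before their symbols.

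RNA of HCT116 cells, a human colorectal carcinoma line, and of its oxaliplatin-resistant derivative HCT116 oxpl-R was sequenced in 8 groups of 3 biological replicates, 24 libraries in all. Both lines carry TetOn-E1A, a transgene for the adenoviral protein E1A that doxycycline switches on. In each line a group was left untreated (control), another received 25 µM oxaliplatin for 24 h, a further group received 0.5 µg/mL doxycycline (named E1A here), and the last received doxycycline 3 h ahead of oxaliplatin (E1A + oxaliplatin). The resistant cells arose from repeated pulses of oxaliplatin given to HCT116 cells, so they are a single derived line of heterogeneous karyotype. No line without the transgene was given doxycycline, so effects of doxycycline and of E1A cannot be told apart, and the level of E1A itself was not analysed here. Count totals were between 24838095 and 37927720 per library. Epithelial markers were abundant in all 24 libraries, EPCAM at 172.9 to 359.9 CPM (counts scaled to a common library total), while DCN and LUM of fibroblasts had at most 3 counts each and PTPRC of leukocytes at most 14. Other markers of these cells were measured, COL1A1 at 339 to 1512 counts in every library, COL1A2 at up to 489 and CD68 at up to 181.4. The 5 fibroblast markers summed to 14.1 to 49.86 CPM, with COL1A1 the most abundant. The 4 leukocyte markers, of which CD68 was the most abundant, summed to 2.435 to 6.363 CPM in HCT116 libraries and 0.3375 to 4.349 CPM in HCT116 oxpl-R libraries, and their part in the results was not tested.

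BMPs are secreted ligands that bring together type I receptors such as BMPR1A and type II receptors such as BMPR2, and the active receptors phosphorylate SMAD1, SMAD5 and SMAD9. These enter the nucleus with SMAD4 and switch on ID genes, whose products block basic helix-loop-helix transcription factors, together with SMAD6 and SMAD7, which damp the signal. In the colon the pathway is known for restraining stem cell renewal in the crypt and favouring differentiation.

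Of the 24 libraries, 3 stood apart. HCT116 oxaliplatin replicate 3 and HCT116 E1A + oxaliplatin replicate 1 correlated with each other at 0.978 across genes, but with their own groups at only 0.950 to 0.954 and 0.946 to 0.952. JUNB, which rose with E1A in both lines, read 11331 normalised counts in the former, against 12679 and 11205 in the rest of its group, and 31829 in the latter, against 33847 and 31430. HEY1, which rose with E1A as well, read 20.3 and 60.4, again within or next to the values of the labelled groups (12.7 and 16.8, and 63.0 and 77.0). By both genes each of the pair lay with its labelled group. In HCT116 oxpl-R oxaliplatin replicate 1 mitochondrial genes took 1.38% of the counts, against 11.03% or more in every other library. In HCT116 cells this share was 11.7 to 14.9% in controls and 17.1 to 19.5% with oxaliplatin. It was 11.93 to 14.95% with E1A and 16.01 to 17.68% with both, so it moved with oxaliplatin there. In HCT116 oxpl-R cells it was 11.03 to 14.41% in controls, and 15.43% and 19.73% in oxaliplatin replicates 2 and 3. With E1A it was 11.30 to 13.07% in these cells, and with both 12.20 to 15.01%. The part of this share in the oxaliplatin responses below was not tested. Closeness to another group was wider than these libraries, since 10 of the 24 correlated better with a library of another group than with any of their own, among them all 3 of the HCT116 oxpl-R E1A group and all 3 of the HCT116 oxpl-R oxaliplatin group. Calls of members that were gained or lost without the 3 libraries are given below, with those of the further pathway genes that are named, as a choice made after seeing the data, and the part that these features play in them was not tested.

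Upstream sequences of 4 of the target genes, ID1, ID3, SMAD6 and SMAD7, are shown first, to place the SMAD motifs beside the measurements. RefSeq windows were found for 8 of the 10 members, not for BMP2 and BMP7. Each line below holds the 250 bases before the RefSeq start site on GRCh38.p14, 5′ to 3′ on the strand of the gene, with GTCT or AGAC (the same motif on either strand) and GGCGCC in capitals. ID1 lies on the plus strand (chr20:31605039-31605288), ID3 on the minus strand (chr1:23559502-23559751), SMAD6 on the plus strand (chr15:66701986-66702235) and SMAD7 on the minus strand (chr18:48950966-48951215, the window nearest to the annotated 5′ end of 3).
ID1: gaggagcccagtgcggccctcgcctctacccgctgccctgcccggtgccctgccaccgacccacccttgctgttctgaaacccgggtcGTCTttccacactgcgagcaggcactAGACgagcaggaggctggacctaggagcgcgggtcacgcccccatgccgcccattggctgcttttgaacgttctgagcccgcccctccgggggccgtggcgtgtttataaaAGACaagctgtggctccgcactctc
ID3: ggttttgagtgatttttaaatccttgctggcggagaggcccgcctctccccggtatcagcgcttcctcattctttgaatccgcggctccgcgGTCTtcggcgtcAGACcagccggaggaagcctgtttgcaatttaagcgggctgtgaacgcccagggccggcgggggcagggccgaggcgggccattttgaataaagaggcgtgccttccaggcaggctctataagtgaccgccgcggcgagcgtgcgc
SMAD6: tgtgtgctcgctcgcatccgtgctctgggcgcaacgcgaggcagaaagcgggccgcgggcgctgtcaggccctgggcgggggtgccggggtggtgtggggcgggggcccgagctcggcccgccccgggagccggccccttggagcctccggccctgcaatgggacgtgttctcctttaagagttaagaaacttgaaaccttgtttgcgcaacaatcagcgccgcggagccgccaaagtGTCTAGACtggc
SMAD7: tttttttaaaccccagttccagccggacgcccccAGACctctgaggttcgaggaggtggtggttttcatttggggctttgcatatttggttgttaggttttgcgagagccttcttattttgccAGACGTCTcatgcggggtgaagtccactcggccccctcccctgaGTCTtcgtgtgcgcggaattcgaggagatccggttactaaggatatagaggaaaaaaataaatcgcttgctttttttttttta
GTCT or AGAC occurred 3 times in the window of ID1, 2 times in those of ID3 and SMAD6, and 4 times in that of SMAD7, and 77.48% of 35116 RefSeq windows of this length held at least 1. In SMAD6 both matches form the palindrome GTCTAGAC, from base -12 to base -5 before the start, which 0.18% of all windows held. None of these 4 windows held GGCGCC, found in 16.38% of all windows, and it occurred 1 time each in the windows of BMP4 and BMPR2. Among the windows not shown, GTCT or AGAC occurred 2 times in those of BMP4 and ID2 and 4 times in that of BMPR2. The window of BMPR1A held neither motif. A match describes letters in a window and not a bound site.

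Per kilobase of transcript, as normalised counts averaged over all 24 libraries, ID1 was the most abundant member at 22328, followed by BMP4 at 7964, ID3 at 7438 and ID2 at 3250. The places of BMP4 and ID3 depended on the line. The mean of ID3 was above that of BMP4 in all 4 HCT116 groups (9879 against 9360 in controls) and below it in all 4 HCT116 oxpl-R groups (5579 against 9973 in controls). SMAD7 at 315, BMP7 at 207, SMAD6 at 174, BMPR1A at 120 and BMPR2 at 46.1 formed a lower tier, with BMP2 last at 13.7. The order within this tier depended on the group as well. In HCT116 controls BMPR1A led it at 220, ahead of SMAD7 at 207, BMP7 at 172 and SMAD6 at 140. In HCT116 oxpl-R controls SMAD6 at 205 was above BMP7 at 161. SMAD6 and SMAD7 were normalised in another table, so their place in this order is approximate. All levels below are normalised counts, scaled to the mean library size and comparable between samples of one gene. Samples of 2 groups that do not overlap were common. In the count table the lines were apart for 35% of 19452 genes untreated, 30.2% after oxaliplatin, 29.6% with E1A and 31.3% with both. Oxaliplatin set 33% apart in HCT116 and 18.4% in HCT116 oxpl-R cells. E1A set 18.8% and 9.83% apart, and 10.9% under oxaliplatin in HCT116 oxpl-R cells.

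BMP2, a ligand, separated the lines completely. None of the 12 HCT116 libraries held a single BMP2 count, and each count of 0 allows up to 3 counts. In HCT116 oxpl-R cells the raw counts were 46, 59 and 62 in the control group and 132, 94 and 142 with E1A. After oxaliplatin they were 76, 79 and 75, and after both 159, 121 and 174. Every resistant library was above every parental library, under all 4 conditions. Set against the limit of 3 counts per library, BMP2 was at least 19.8-fold higher in the untreated resistant cells, at least 27.7-fold higher after oxaliplatin, at least 36.7-fold higher with E1A and at least 42.8-fold higher with both. The 3 treated comparisons passed edgeR's quasi-likelihood test (adjusted p = 2.21e-10 for oxaliplatin, 1.58e-10 for E1A and 1.11e-10 for both). In bulk RNA, fewer cells that express a gene and less RNA per cell cannot be told apart. Within HCT116 oxpl-R cells BMP2 averaged 59.6 ± 5.65 normalised counts in controls and 116 ± 14.0 with E1A (SD, n = 3), and the samples of these groups did not overlap. The log2FC of 0.96 ± 0.30 (SE) did not pass edgeR's test over all genes (adjusted p = 0.426), but passed with DESeq2 (0.0482) and with limma on log2(CPM + 1) (8.65e-06).

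BMP4, the most abundant of the ligands, stood at 17974, 17319 and 18929 normalised counts in HCT116 controls and at 18371, 19234 and 20168 in HCT116 oxpl-R controls, so the untreated lines overlapped (log2FC 0.09). With oxaliplatin the HCT116 samples read 15834, 15828 and 14592, and the resistant samples 23343, 18737 and 20331. The resistant samples were all higher, and the log2FC was 0.43 ± 0.16 (edgeR, adjusted p = 0.0412). Without the 3 libraries that stood apart the log2FC was 0.25 (adjusted p = 0.259), with RLE scaling it was 0.38 (0.0926), and the call was lost whichever single library of the comparison was left out (adjusted p between 0.0626 and 0.175). BMP4 had lower means wherever E1A was induced. In HCT116 oxpl-R cells under oxaliplatin, the addition of E1A brought the samples to 13027, 14843 and 11573, all below those with oxaliplatin alone, and BMP4 fell by 0.66 ± 0.16 on the log2 scale (edgeR, adjusted p = 0.0210). The call was lost without HCT116 oxpl-R oxaliplatin replicate 1 (0.0740), or without replicate 1 (0.104) or 3 (0.144) of HCT116 oxpl-R E1A + oxaliplatin. In this comparison equally numbered samples shared their deviations from the group means. The call was kept with the replicate number as a block over all groups (adjusted p = 0.0112) and lost with the block in these 2 groups alone (adjusted p = 0.169). The log2FC for E1A alone was -0.65 in HCT116 oxpl-R cells (edgeR, adjusted p = 0.0864) and -0.50 in HCT116 cells (0.291). These calls turned on the fit. In HCT116 oxpl-R cells BMP4 was called under 6 of 16 alternatives, among them DESeq2 (adjusted p = 0.000167) and edgeR without the 3 libraries that stood apart (0.00678). With the replicate block in edgeR it was called over all groups (adjusted p = 0.0488) and not within these 2 groups (0.125). In HCT116 cells it was called under 3 of 16, DESeq2 (0.00467), edgeR on these groups alone (0.00152) and edgeR without the 3 libraries (0.0217).

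BMP7, a ligand of the same family, showed no called difference between the lines. In HCT116 cells it read 694, 651 and 734 normalised counts in controls and 1018, 971 and 1075 after oxaliplatin. All 3 treated samples were above the controls, a log2FC of 0.56 ± 0.18 (edgeR, adjusted p = 0.0287), which was not called without HCT116 control replicate 1 (0.0882) or 2 (0.126). The HCT116 oxpl-R means were 646 ± 41.4 in controls and 847 ± 70.5 after oxaliplatin (SD, n = 3).

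BMPR1A, the type I receptor, read 1456, 1609 and 1166 in HCT116 controls, the highest of all 8 groups, and 725, 602 and 886 in HCT116 oxpl-R controls. The untreated resistant samples were all lower (log2FC -0.94, a description). With E1A they were again all lower, at -0.70 (edgeR, adjusted p = 0.0783), which was called without HCT116 oxpl-R E1A replicate 3 (-0.99, 0.0193). After oxaliplatin the HCT116 samples fell to 407, 669 and 862. BMPR1A fell by 1.13 ± 0.27 on the log2 scale (edgeR, adjusted p = 0.00369), and the samples did not overlap. Without HCT116 oxaliplatin replicate 1 the log2FC was -0.79 (adjusted p = 0.0774). The resistant line, at 504, 514 and 939 after oxaliplatin, then overlapped the parental line. A response of a single line to oxaliplatin or E1A alone uses the untreated controls, so its test is not independent of the choice of members. The difference between the lines in the response to oxaliplatin contains the untreated line difference, known when the members were chosen, so it is given here and below as a description without a test. For BMPR1A it was 0.95 ± 0.38 (95% interval 0.21 to 1.68), 1.28 without the 3 libraries that stood apart and 0.52 without HCT116 oxpl-R oxaliplatin replicate 3, the lowest of 22 alternatives. BMPR2, the type II receptor, passed in no comparison in edgeR's fit of all 24 libraries. Its group means ran from 445 to 743, and in the HCT116 oxaliplatin group replicate 3, one of the libraries that stood apart, read 800 against 368 and 346 in the others. In that fit its log2FC in HCT116 cells was -0.46 with oxaliplatin (edgeR, adjusted p = 0.263) and -0.74 with oxaliplatin on top of E1A (0.0879). Without the libraries that stood apart these were -0.86 (edgeR, adjusted p = 0.00331) and -0.87 (0.00766). Between the lines the log2FC was 0.12 after oxaliplatin (edgeR, adjusted p = 0.898) and -0.71 with E1A (0.0755) in the fit of all libraries, and 0.70 (0.0243) and -0.60 (0.0222) without those 3. The value after oxaliplatin turned negative when any of 4 single libraries was left out, down to -0.13. The responses of the lines to oxaliplatin differed by 0.46 with all libraries and by 1.00 without the 3.

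**Figure D1:**
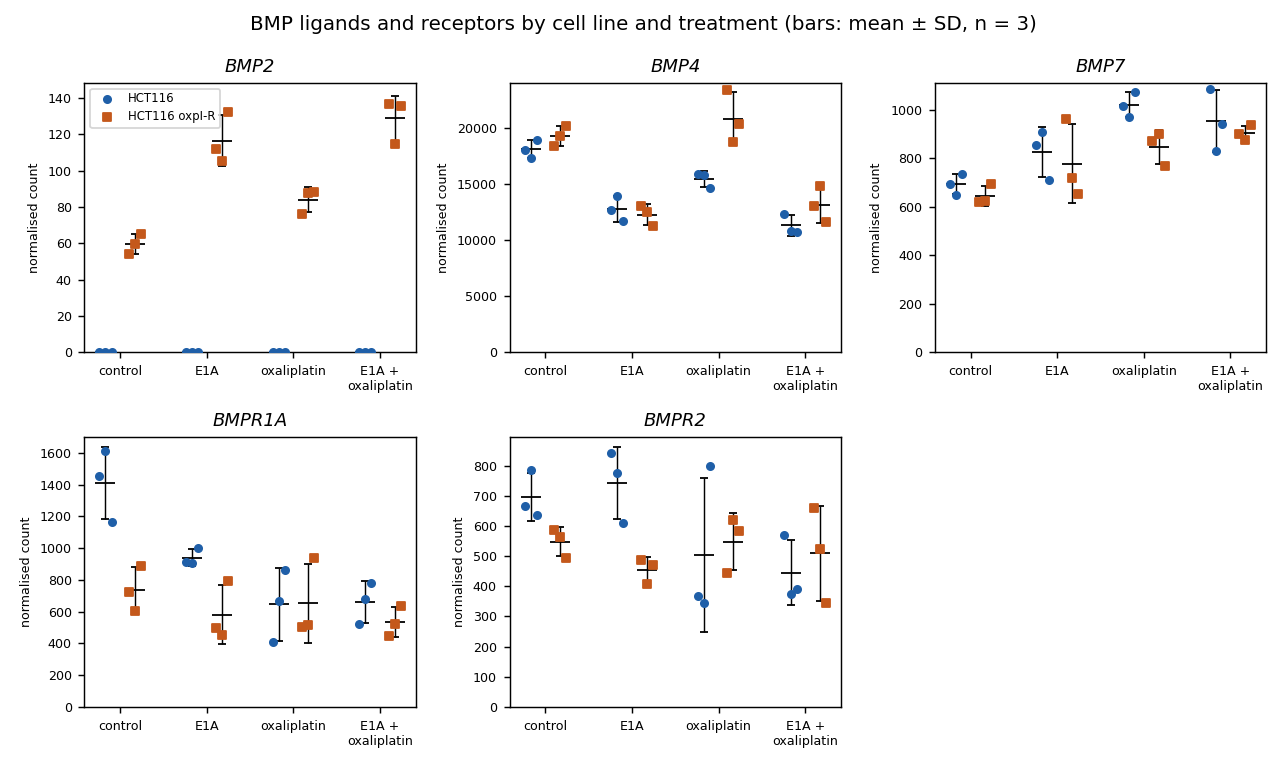
Normalised counts (vertical axes, linear from 0) of the 3 ligands and 2 receptors in each library of HCT116 cells (circles) and HCT116 oxpl-R cells (squares) under 4 conditions, with group means and SD (n = 3). BMP2 lies at 0 in all HCT116 libraries, and the HCT116 control samples hold the highest BMPR1A values.

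ID3, an inhibitor of differentiation and a direct BMP target, was lower in the resistant line under every condition. HCT116 controls read 9198, 8754 and 10203 normalised counts and HCT116 oxpl-R controls 4869, 5095 and 5935. With E1A the values were 8637, 9769 and 7922 in HCT116 cells and 5646, 3521 and 4849 in resistant cells. With oxaliplatin they were 11976, 10019 and 9354 against 5112, 4016 and 3519. The combination gave 9960, 8855 and 8070 against 4726, 3909 and 5664. The lines did not overlap in any of the 4 conditions, as was so for 29.6 to 35% of all tested genes in each single condition. The log2FC was -0.82 in untreated cells, as a description, and ID3 passed the test in each treated comparison, at -1.31 ± 0.19 with oxaliplatin (edgeR, adjusted p = 2.95e-06), -0.91 ± 0.19 with E1A (0.000953) and -0.91 ± 0.19 with both (0.00061). In each of these 3 comparisons all 16 alternatives kept the direction and the call. The responses of the lines to oxaliplatin differed by -0.49 ± 0.26, and by -0.83 without the 3 libraries that stood apart.

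ID1, the member with the highest level, did not follow ID3 between the lines. HCT116 controls read 23238, 22799 and 25586, and HCT116 oxpl-R controls 21942, 23956 and 23100, overlapping ranges. Oxaliplatin gave 32828, 27584 and 20073 in HCT116 cells and 37073, 28200 and 25543 in resistant cells, and E1A gave 17388, 18976 and 17985 against 17577, 13505 and 13268. With E1A alone all samples of both lines lay below their controls, and with oxaliplatin alone the means of both lines were above them. The ratio of ID1 to ID3 counts averaged 2.55 in HCT116 controls and 4.37 in HCT116 oxpl-R controls, and 2.55 against 7.18 after oxaliplatin. In HCT116 oxpl-R cells under oxaliplatin, E1A brought ID1 to 18708, 19175 and 18756, below all samples without it. The log2FC was -0.68 ± 0.18 (edgeR, adjusted p = 0.0564), with a call under 8 of 16 alternatives. In this comparison too equally numbered samples shared their deviations. ID1 passed with the replicate block over all groups (-0.67, adjusted p = 0.0303) and did not with the block in these 2 groups alone (-0.66, adjusted p = 0.149). With the libraries that stood apart left out, ID1 fell here by 0.53 (edgeR, adjusted p = 0.0424) and with E1A alone in HCT116 oxpl-R cells by 0.64 (0.0107), and rose with oxaliplatin in HCT116 cells by 0.44 (0.0179). In edgeR's fit of all libraries the latter 2 were -0.64 (adjusted p = 0.252) and 0.17 (0.605), and DESeq2 on all libraries called the former (0.0318).

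ID2, the third of these inhibitors, passed in no comparison in edgeR's fit of all 24 libraries, and its lowest values under oxaliplatin came from few libraries. In the HCT116 oxaliplatin group replicates 1 and 2 read 6255 and 6267 and replicate 3 read 1006. In the HCT116 E1A + oxaliplatin group replicate 1 read 1174 and the others 4472 and 5027. In the HCT116 oxpl-R oxaliplatin group replicate 1 read 2920 and the others 6588 and 7079. The low values are those of the 3 libraries that stood apart on other grounds. Without them ID2 rose with oxaliplatin in HCT116 oxpl-R cells by a log2FC of 0.74 (edgeR, adjusted p = 0.00295) and with oxaliplatin on top of E1A in HCT116 cells by 0.54 (0.0257). In the fit of all libraries these were 0.43 (edgeR, adjusted p = 0.705) and 0.05 (1). It fell with E1A under oxaliplatin in HCT116 oxpl-R cells by 0.71 without them (edgeR, adjusted p = 0.0123), against -0.38 with them (0.835). The response to E1A in HCT116 cells, a comparison that holds none of the 3 libraries, was -0.57 in the fit of all libraries (edgeR, adjusted p = 0.894). It was called with these 2 groups alone in the fit (-0.61, 0.00278) and with the 3 libraries left out of the fit (-0.61, 0.0339).

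SMAD6, an inhibitory SMAD that competes for the receptor-activated SMADs, had a different order of the lines in untreated cells and after oxaliplatin. Untreated HCT116 cells read 465, 538 and 604 normalised counts and untreated HCT116 oxpl-R cells 819, 821 and 719, all higher (log2FC 0.55, a description). After oxaliplatin HCT116 cells read 949, 864 and 862 and resistant cells 704, 504 and 488, all lower. The combination gave 797, 861 and 860 against 539, 567 and 528, again lower in the resistant line. With E1A alone HCT116 cells read 497, 470 and 662 and resistant cells 685, 509 and 654, so the lines overlapped (log2FC 0.18, edgeR, adjusted p = 0.600). The log2FC between the lines was -0.66 ± 0.19 after oxaliplatin (edgeR, adjusted p = 0.0110) and -0.62 ± 0.19 with both agents (0.0219). With only the 2 groups of a comparison in the fit these were no longer called (adjusted p = 0.0712 and 0.0698). The oxaliplatin call was lost without HCT116 oxpl-R oxaliplatin replicate 2 (0.0932) or 3 (0.0661). The call with both agents was lost without replicate 2 or 3 of the HCT116 group or any replicate of the HCT116 oxpl-R group (adjusted p between 0.0538 and 0.0671). In HCT116 cells SMAD6 rose with oxaliplatin by 0.74 ± 0.19 (edgeR, adjusted p = 0.00864) and with oxaliplatin on top of E1A by 0.63 ± 0.19 (0.0444). The former was not called without HCT116 control replicate 1 (0.0647), and the latter without HCT116 E1A replicate 1 (0.196) or 2 (0.228) or HCT116 E1A + oxaliplatin replicate 2 (0.123) or 3 (0.105). The response of HCT116 oxpl-R cells to oxaliplatin was -0.48 (adjusted p = 0.183), and -0.66 without the libraries that stood apart (0.0388). As a description, the responses of the lines to oxaliplatin differed by -1.21 ± 0.27 (95% interval -1.75 to -0.68), which is the line difference of -0.66 after oxaliplatin less the untreated one of 0.55. Without the 3 libraries that stood apart the difference was -1.42.

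SMAD7, which blocks type I receptors, read 695, 691 and 687 in HCT116 controls and 1184, 1046 and 1102 in HCT116 oxpl-R controls (log2FC 0.69, a description). After oxaliplatin HCT116 cells read 1247, 1303 and 876, and with both agents 1399, 1408 and 1242. All of these were above the HCT116 controls and the samples with E1A alone. SMAD7 rose in HCT116 cells by 0.72 ± 0.18 with oxaliplatin (edgeR, adjusted p = 0.00653) and by 0.92 ± 0.18 with oxaliplatin on top of E1A (0.00202). Resistant cells read 1313, 1091 and 1009 after oxaliplatin, a range that holds the untreated samples, and no treatment changed SMAD7 there in the test. The lines therefore overlapped after oxaliplatin, while with E1A alone SMAD7 was higher in the resistant line by 0.58 ± 0.18 (edgeR, adjusted p = 0.0346). That call was lost with only these 2 groups in the fit (0.0672), and without HCT116 E1A replicate 1 (0.142) or 2 (0.149), or HCT116 oxpl-R E1A replicate 1 (0.167) or 2 (0.0505). The responses to oxaliplatin differed between the lines by -0.69 ± 0.26 (95% interval -1.20 to -0.18), and by -0.97 without the libraries that stood apart, again as a description.

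**Figure D2:**
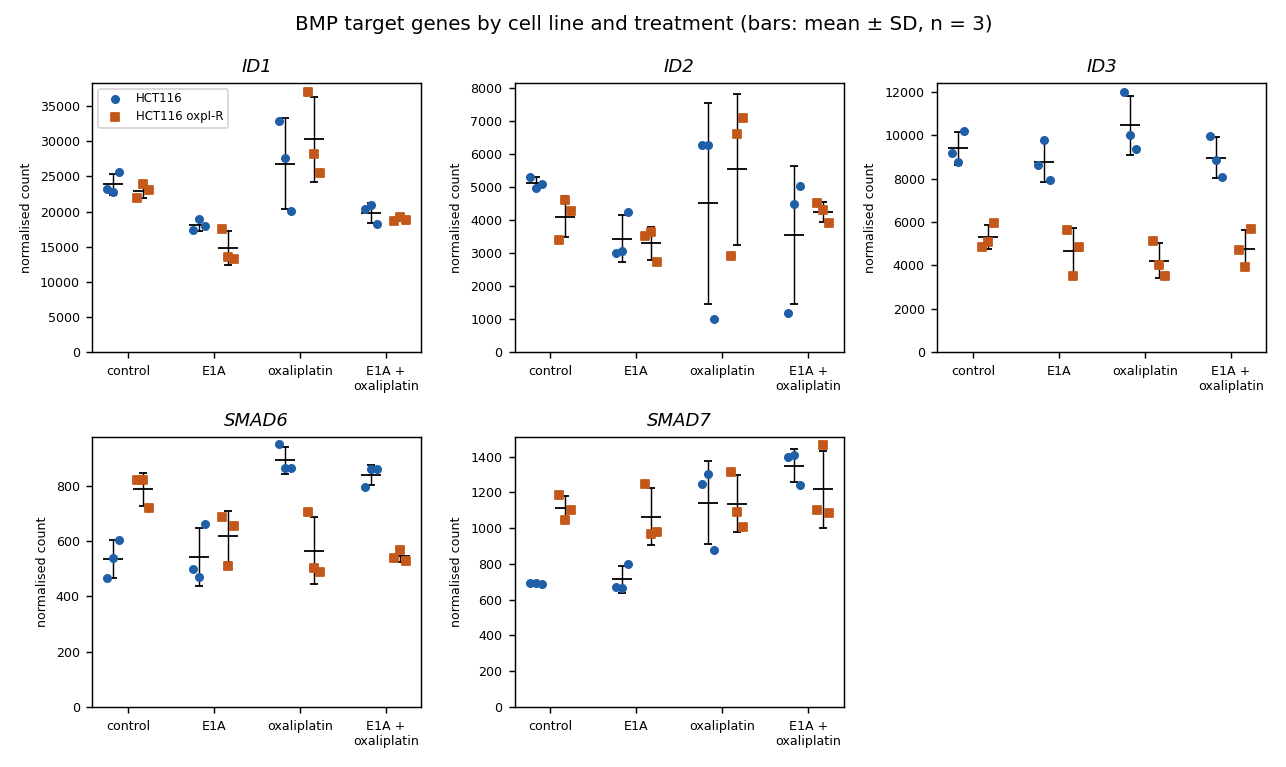
Normalised counts (vertical axes, linear from 0) of the 5 target genes in each library of HCT116 cells (circles) and HCT116 oxpl-R cells (squares) under 4 conditions, with group means and SD (n = 3). ID3 is lower in the resistant line throughout, and SMAD6 is higher in untreated resistant cells and lower after oxaliplatin.

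Counted over the members, 4 of 10 differed between the lines after oxaliplatin (BMP2 and BMP4 higher, ID3 and SMAD6 lower), where 25.6% of all 19452 genes tested in the count table did. With E1A 3 of 10 differed (BMP2 and SMAD7 higher, ID3 lower, background 14.4%), and with both agents 3 of 10 (BMP2 higher, ID3 and SMAD6 lower, background 19.3%). In the second table, which held the SMAD genes, the backgrounds were 25.1%, 12.2% and 18%, and 43%, 24.4% and 32.3% of the 11090 expressed genes in the first table passed. Against these backgrounds the counts of members are small, and nothing particular to the pathway is read from them.

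**Figure D3:**
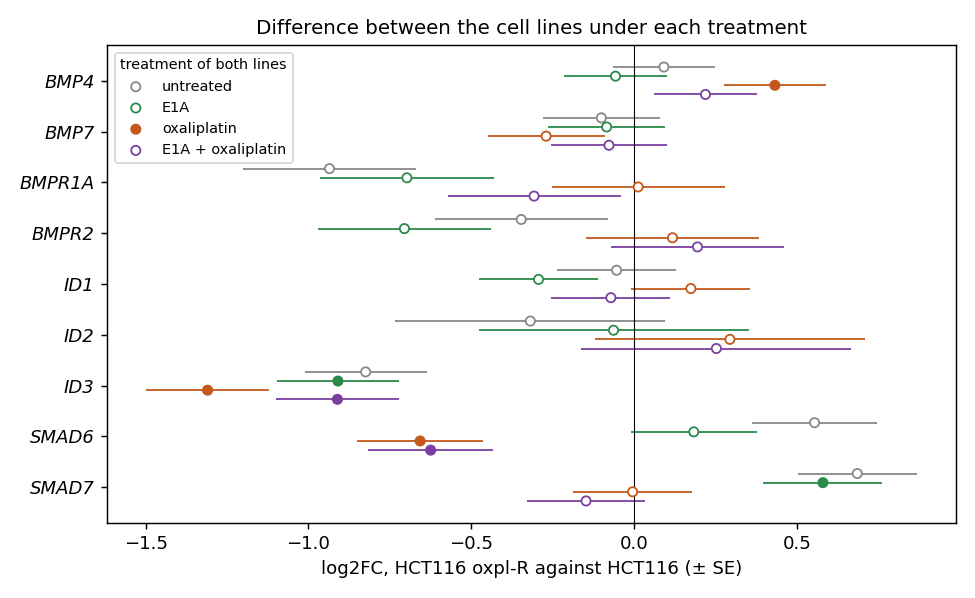
Difference between the lines as log2FC (horizontal axis, HCT116 oxpl-R against HCT116, ± SE) for the 9 members other than BMP2 under 4 conditions, with filled points past an adjusted p of 0.05 and the untreated comparison not tested. ID3 stays left of 0 in all conditions, and SMAD6 moves from 0.55 in untreated cells to -0.66 after oxaliplatin.

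Treatment responses of a line share samples, so their calls are not independent, and backgrounds are given below for the count table and then the second table. Responses to oxaliplatin alone and to E1A alone rest on the untreated controls, whose line difference was known when the members were chosen. Their tests are not independent of that choice. Untreated log2FC between the lines was -0.94 for BMPR1A, 0.55 for SMAD6, 0.69 for SMAD7 and -0.10 for BMP7. In HCT116 cells oxaliplatin changed 4 of 9 testable members (BMP7, SMAD6 and SMAD7 up, BMPR1A down, background 17.4% and 16.4%). On top of E1A it changed 2 of 9 (SMAD6 and SMAD7 up, background 8.09% and 7.04%). Of the 11090 expressed genes in the count table, 29.8% passed with oxaliplatin and 13.9% with oxaliplatin on top of E1A. Nothing particular to the pathway is read from these counts of members. In HCT116 oxpl-R cells oxaliplatin changed none of the 10 by edgeR (background 6.11% and 5.8%), while 3 had an unadjusted p below 0.05, DESeq2 called 0 and limma 1. On top of E1A it changed none (background 2.8% and 2.52%), with 0 at an unadjusted p below 0.05 and 0 by DESeq2 and by limma. The differences between the lines in the responses to oxaliplatin alone and to E1A alone contain the untreated line difference and were not tested. E1A alone changed no member by edgeR in HCT116 cells (background 0.432% and 0.223%, 3 at an unadjusted p below 0.05, 1 by DESeq2 and 0 by limma) or in HCT116 oxpl-R cells (background 0.226% and 0.158%, 3 unadjusted, 3 by DESeq2 and 2 by limma). Under oxaliplatin E1A changed none of 9 in HCT116 cells (background 0.0874% and 0.0701%, 2 unadjusted, 0 by DESeq2 and by limma) and 1 of 10, BMP4, in HCT116 oxpl-R cells (background 1.39% and 1.42%, and 2.41% of expressed genes). The remaining 4 tests of differences between responses called no member by edgeR. Of these, the difference between the lines in the response to oxaliplatin on top of E1A (background 0.195% and 0.153%) had 3 members at an unadjusted p below 0.05, 1 call by DESeq2 and 0 by limma, and the other 3 had 0 by each measure. Their backgrounds were 0.134% and 0.171% for the difference between the lines in the response to E1A under oxaliplatin. For the interaction of E1A with oxaliplatin they were 0.0103% and 0.00876% in the parental line and 0.036% and 0.0613% in the resistant line.

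Beyond the members, 71 further genes of the pathway were listed, and 64 had a count. Of the 57 tested after oxaliplatin, 13 were higher and 9 lower in the resistant line, where 25.6% of all tested and 43% of expressed genes passed. Their median log2FC was 0.08, beside 0.09 over 11090 expressed genes. With E1A 7 of 61 were higher and 8 lower (24.4% of expressed genes), and with both agents 10 of 59 were higher and 4 lower (32.3%). By role, 6 of 13 tested antagonists and modulators were higher after oxaliplatin, 2 of 16 with E1A and 5 of 15 with both, and none was lower. Of the receptors and co-receptors 1 was higher and 4 of 12 lower after oxaliplatin, 1 higher and 3 of 13 lower with E1A, and 1 higher and 1 of 11 lower with both. These shares by role have no test, and nothing particular to a role is read from them. The list medians in the fit of all libraries were -0.09 with E1A and 0.12 with both agents, beside -0.05 and 0.05 over expressed genes. Without the 3 libraries that stood apart, 12 of 57 were higher and 10 lower after oxaliplatin, with 4 calls lost and 4 gained. With E1A 10 were then higher and 10 lower (0 lost, 5 gained), and with both agents 11 higher and 3 lower (2 lost, 2 gained). In the fit of all libraries, 4 of the listed genes passed with an absolute log2FC above 1 in all 3 treated comparisons. NOG, which encodes the BMP antagonist noggin, had means of 7.04 ± 1.25 in HCT116 controls and 75.8 ± 1.86 in HCT116 oxpl-R controls, and its log2FC in treated cells was 1.76 after oxaliplatin, 1.74 with E1A and 1.69 with both (edgeR, largest adjusted p = 7.37e-05). GDF15, a stress-induced member of the ligand superfamily, had means of 13700 ± 1156 and 51274 ± 16390 after oxaliplatin (log2FC 1.90, edgeR, adjusted p = 8.7e-08). RUNX2, a transcription factor that works with SMADs in bone, averaged 208 ± 21.3 and 1284 ± 422 after oxaliplatin (log2FC 2.63, edgeR, adjusted p = 1.06e-08). BMP6, a further ligand, was lower in the resistant line, with 170 ± 30.8 against 55.6 ± 18.3 (log2FC -1.61, edgeR, adjusted p = 3.43e-05). Without the 3 libraries that stood apart, NOG, GDF15, RUNX2 and BMP6 kept direction and call in the 3 treated line comparisons. Their log2FC after oxaliplatin was then 1.44, 1.498, 2.86 and -1.37.

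Among treatment responses, NOG rose in HCT116 cells with oxaliplatin by 2.47 ± 0.33 (edgeR, adjusted p = 6.95e-06), and the response of HCT116 oxpl-R cells differed from it by -1.64 ± 0.43, as a description. GDF15 rose with oxaliplatin in both lines, by 2.94 in the parental line (edgeR, adjusted p = 5.11e-10) and by 2.01 in the resistant line (1.29e-07). FSTL3, an antagonist of activins, rose in HCT116 cells by 1.46 with oxaliplatin (edgeR, adjusted p = 1.52e-06) and by 1.09 with oxaliplatin on top of E1A (0.000151), and in HCT116 oxpl-R cells by 0.70 with oxaliplatin on top of E1A (0.0199). ATOH8, a target gene, fell by 1.12 on the log2 scale with oxaliplatin in HCT116 oxpl-R cells (edgeR, adjusted p = 0.0273), a call that was lost without the libraries that stood apart (-1.07, 0.0661), while those named for NOG, GDF15, FSTL3, JUNB and HEY1 as responses were kept. E1A raised the targets JUNB and HEY1 in both lines. JUNB averaged 5423 in HCT116 controls and 27213 with E1A (log2FC 2.33, edgeR, adjusted p = 5.34e-08), and 3413 and 12588 in HCT116 oxpl-R cells (1.88, 4.98e-06). HEY1 averaged 17.1 and 93.2 in HCT116 cells (2.44, edgeR, adjusted p = 6.05e-06) and 34.2 and 95.1 in resistant cells (1.47, 0.00995). HEY2, at 0 in the HCT116 controls, averaged 13.4 with E1A and 11.6 with oxaliplatin, and GDF1, which shares a locus with CERS1 and is uncertain, averaged 1.16 in HCT116 controls and 13.2 with oxaliplatin.

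On GRCh38, BMP2 lies at chr20:6767686-6780246, ID3 at chr1:23557926-23559501 and SMAD6 at chr15:66702236-66782849. The 34 expressed genes within 5 Mb of BMP2 had a median log2FC between the lines of 0.20, averaged over the treated comparisons, and the median over all 11023 expressed genes with a position was 0.04. For the 97 such neighbours of ID3 the median was -0.19 and for the 52 of SMAD6 it was -0.23. Between the untreated lines, as a description, the neighbour medians were 0.09 for BMP2, -0.06 for ID3 and -0.45 for SMAD6. The 32 neighbours of BMPR1A on chromosome 10 had medians of -0.01 in treated and -0.32 in untreated cells. The part of position in these results was not tested. By the smallest root mean square difference of centred log2(CPM + 1) over 24 samples among 11977 genes, the patterns most like that of BMP2 were LINC00668 (0.23), ING1 (0.26) and FAM225A (0.29). Genes most like BMP4 included EZR (0.15) and PHLDA1 (0.19), and those most like ID1 were ADM (0.18), MSLN (0.21) and MROH6 (0.22).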

How the data were processed

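RNA was sequenced by the study from 24 samples, 3 per group. The authors trimmed reads with Trimmomatic, mapped them with Salmon 1.6.0 to the GENCODE transcriptome (GRCh38), summed transcripts to genes and deposited estimated counts per gene without normalization, which were rounded here for the edgeR and DESeq2 tests, while printed levels are from the unrounded values. A second deposited table, named as TPM, sums to 28004261 to 42613322 per sample, so its values were read as length-scaled estimated counts, another unit than was assumed in planning. The last, incomplete row of each table was dropped.

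Tests were run with edgeR 4.0.16 under R 4.3.3 (TMM, quasi-likelihood test over all 8 groups, p-values adjusted by Benjamini-Hochberg across every gene that had a count, threshold 0.05). Of the planned tests, the differences between the lines in the responses to oxaliplatin alone and to E1A alone contain the untreated line difference and are given as values without a test. The p-values set a difference against the spread between labelled biological replicates. That spread was estimated over all 24 libraries, so libraries of other groups bear on it. Limits of 3 counts cover counting error only. Alternatives were RLE, DESeq2 1.42.0, filterByExpr, only the groups compared, the replicate number as a block, the second table for all members, limma 3.58.1 on log2(CPM + 1) and log2(CPM + 0.1), and each library left out. The tests were also run on simulated counts with the same spread for every gene. The simulation held no libraries that stood apart and no paired replicates, so it does not cover these features. Members and lists were chosen with earlier results of these data known. Named by rule were all 10 members, further pathway genes past an absolute log2FC of 1 in all 3 treated line comparisons, the 2 with the largest change in each treatment comparison, and the 3 most alike genes for BMP2, BMP4 and ID1, of which a single gene is not reported here. Positions and transcript lengths are from GENCODE 44, an earlier release than the authors'. Equally numbered samples deviated together (all 3 correlations above 0.1) only in the oxaliplatin response with E1A (0.407, 0.390 and 0.502) and the E1A response under oxaliplatin (0.116, 0.188 and 0.382) of HCT116 oxpl-R cells, a hint from the data and not from the labels. Replicates 2 and 3 also shared deviations in the oxaliplatin response (0.093, 0.417 and 0.477) and the E1A response (-0.036, 0.494 and 0.599) of these cells. Data preparation used Python 3.11.15, pandas 2.3.3, numpy 2.4.6 and matplotlib 3.10.9.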

Additional observations from a re-analysis of the deposited data

Results flagged for a closer look

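SMAD6 lay on opposite sides of its controls after oxaliplatin in the 2 lines. All 3 treated HCT116 samples were above all HCT116 controls, a rise that passed a test not independent of the choice of members. All 3 treated HCT116 oxpl-R samples were below all of their controls, but that response of -0.48 did not pass (edgeR, adjusted p = 0.183) and passed only without the 3 libraries that stood apart (0.0388) among the alternatives run. The responses differed by -1.21 on the log2 scale. This difference contains the untreated line difference of 0.55, known when the members were chosen, and was not tested. No explanation was tested.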

How the results depend on the processing

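ID3 (lower in the resistant line) and BMP2 (higher) kept direction and call in the 3 treated line comparisons under every alternative run. Counts of members called that moved by over 1.5 times are given here, and the cause was not tested. With the replicate block BMPR1A passed between the lines with E1A (adjusted p = 0.0208 in edgeR). With the block within these groups neither BMPR1A (adjusted p = 0.0646 in edgeR) nor SMAD7 (0.0747) passed. Between the lines after oxaliplatin the 4 calls became 2 with only the groups of the comparison and 2 with the replicate block within them. In HCT116 cells the 4 calls for oxaliplatin became 1 with that block (adjusted p = 0.0502 for BMP7, 0.0632 for BMPR1A and 0.0590 for SMAD7 in edgeR), the 0 calls for E1A became 1 with DESeq2, 2 without the 3 libraries that stand apart and 4 with only its groups, and the 2 calls for oxaliplatin on top of E1A became 1 with either pseudocount in limma, 1 with only its groups and 4 without the 3 libraries. In HCT116 oxpl-R cells the 0 calls for oxaliplatin became 1 with limma on log2(CPM + 1) and 2 without the 3 libraries. There the 0 calls for E1A became 3 with DESeq2, 1 each with filterByExpr, the replicate block and the second table, 2 and 1 with limma at pseudocounts of 1 and 0.1, and 2 without the 3 libraries. The 1 call for E1A under oxaliplatin became 2 each with DESeq2, filterByExpr, the replicate block and the second table, 3 and 2 with limma at pseudocounts of 1 and 0.1, 3 without the 3 libraries, and 0 each with only its groups and with the replicate block within them. For the difference between the lines in the response to oxaliplatin on top of E1A, 0 calls became 1 with DESeq2. With 1 library left out at a time, the calls ranged from 2 to 3 between the lines after oxaliplatin, from 2 to 5 for oxaliplatin and from 1 to 2 for oxaliplatin on top of E1A in HCT116 cells, and from 0 to 2 for E1A under oxaliplatin in HCT116 oxpl-R cells. BMPR2 passed for oxaliplatin on top of E1A in HCT116 cells with the replicate block within the groups (-0.67, adjusted p = 0.0358 in edgeR). Direction changed for 4 values that were not called or not tested. BMP7 between the untreated lines (-0.10) became 0.16 with the second table and 0.16 and 0.17 in limma at pseudocounts of 1 and 0.1. The difference of ID1 between the lines in the oxaliplatin response (0.23) became -0.22 without the 3 libraries. ID2 with oxaliplatin on top of E1A in HCT116 cells (0.05) became -0.0031 with the replicate block, -0.0932 with the block within its groups, -0.20 in limma at both pseudocounts (-0.198 and -0.2033), and ranged from -0.2116 to 0.5368 with 1 library left out. BMPR2 between the lines after oxaliplatin ranged from -0.1283 to 0.5594 with 1 library left out. Of 110 further results of members, 52 changed sign under an alternative and none was called under any. Except in the 2 comparisons named in the processing summary, the 3 correlations of equally numbered samples were not all above 0.1. That rule does not exclude pairing of some replicates, as in the responses of HCT116 oxpl-R cells to oxaliplatin and to E1A. With 3 samples per group, differences smaller than the spread between replicates could not be called.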
